A study of Homo sapiens with 42 samples.

Results

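The genes described here are 10 parts of cytokine signalling in RPMI-8226 cells, an established human multiple myeloma line: the interleukin-6 (IL-6) receptor chains IL6R and IL6ST, the common gamma chain IL2RG and its partners IL21R and IL4R, the IL-10 receptor chain IL10RA, the kinases JAK1 and JAK2, the transcription factor STAT3 and the feedback inhibitor SOCS3. Every probe set annotated to 1 of these genes was taken, which gave 32 of the 54675 probe sets in the table, each annotated to a single gene. A filter on dim values, an array's own median or more on at least 3 of the 42 arrays, retained 25 of the 32. The retained probe sets numbered 3 of 3 for IL6R, 5 of 7 for IL6ST, 1 of 1 for IL2RG, IL4R and IL10RA, 3 of 3 for IL21R, 3 of 5 for JAK1, 2 of 3 for JAK2, 4 of 4 for STAT3 and 2 of 4 for SOCS3. The other 7 had signals between 0.2 and 23.1 and were not tested. Just inside the filter were SOCS3 probe set 214105_at, which reached the array median on 6 arrays, and JAK2 probe set 205841_at, on 8 arrays. Just outside it were JAK1 probe sets 239695_at, on 2 arrays, and 240613_at, on 1.

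IL-6 binds IL6R, the complex engages the shared signalling chain IL6ST (gp130), and JAK kinases bound to that chain phosphorylate STAT3, which enters the nucleus and induces SOCS3, an inhibitor of the same kinases. IL6ST also serves other cytokines of the IL-6 family, such as IL-11 and LIF. The common gamma chain IL2RG pairs with chains such as IL21R and IL4R and signals through JAK3 and JAK1. IL-6 is a growth and survival factor of myeloma cells.

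Transcript levels were read on Affymetrix U133 Plus 2 arrays, 1 array per sample, in RPMI-8226 cells stably infected with a doxycycline-inducible shRNA against BMI1 or with an inducible control shRNA. BMI1 is a subunit of the Polycomb repressive complex that ubiquitinates histone H2A. Each line was grown without doxycycline and sampled at 0, 24, 32 and 48 h, and with 100 ng/ml doxycycline at 24, 32 and 48 h, with 3 arrays in each of the 14 groups. There was 1 infected line of each kind, so a difference between undosed lines cannot be told apart from a difference between the infections. Likewise, an effect of doxycycline in the BMI1-shRNA line through BMI1 cannot be told apart from other effects of that hairpin or a trait of that infection. The labels do not say whether the replicates were separate cultures, so p-values measure the spread between these samples, which may be technical. The 3 arrays of the BMI1-shRNA line at 0 h carry conflicting labels. Their titles name no doxycycline, 1 other label names doxycycline, and their source label names the control line. They are grouped here by title.

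The probe set for BMI1, 202265_at, also annotated to the readthrough transcript COMMD3-BMI1, served as the check of the labels. In the BMI1-shRNA line its signal was 177.5 ± 32.0 with doxycycline against 975 ± 112 without (mean ± SD, n = 9 each, the 24, 32 and 48 h arrays together), a log2 fold change of -2.43 ± 0.06 (SE, limma with Benjamini-Hochberg adjustment over 35235 probe sets, adjusted p = 3.04e-28). In the control line the change was 0.03 (adjusted p = 0.981). Without doxycycline BMI1 was also lower in the BMI1-shRNA line than in the control line, with a difference of -0.32 on the log2 scale (adjusted p = 2.12e-05). At 0 h the arrays titled as the BMI1-shRNA line read 1009.3 to 1069.4, within the range of that line's undosed arrays. Of 10 plasma cell markers 9 were retained, JCHAIN, MZB1 and XBP1 among them with median signals of 9365, 4738 and 2296, while SLAMF7 and CD27 were dim at 2.9 and 14.6. The monocyte genes CD14, LYZ and CD163 had medians of 2.35 to 3.6. EPCAM and KRT18, epithelial genes, had medians of 3285 and 1917. The other epithelial genes listed, CDH1, KRT8 and KRT19, had medians of 181.15, 43.25 and 1.35. The 3′ to 5′ signal ratio of the GAPDH control probe sets, a measure of RNA quality, was 0.935 ± 0.025 in the BMI1-shRNA line and 1.03 ± 0.040 in the control line (SD, n = 21 each). Within the BMI1-shRNA line it was 0.930 with and 0.941 without doxycycline.

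The results turned on IL6ST and IL2RG, so the 250 bases upstream of the RefSeq transcription start of each are shown (GRCh38.p14, 5′ to 3′ on the gene's strand, both genes lying on the minus strand), with CG dinucleotides in capitals because Polycomb complexes are known to occupy CpG-rich promoters.
IL6ST, chr5:55994964-55995213: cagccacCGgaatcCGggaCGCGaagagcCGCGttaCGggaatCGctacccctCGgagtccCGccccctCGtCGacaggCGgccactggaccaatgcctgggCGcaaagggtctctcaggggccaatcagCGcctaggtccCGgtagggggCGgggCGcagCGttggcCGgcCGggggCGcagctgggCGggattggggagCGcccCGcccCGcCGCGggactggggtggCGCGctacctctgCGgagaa
IL2RG, chrX:71111578-71111827: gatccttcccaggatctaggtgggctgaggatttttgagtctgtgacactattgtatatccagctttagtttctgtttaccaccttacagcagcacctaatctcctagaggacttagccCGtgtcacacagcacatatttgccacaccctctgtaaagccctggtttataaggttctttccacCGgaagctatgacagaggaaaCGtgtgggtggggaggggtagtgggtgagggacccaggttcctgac
The IL6ST window held 31 CG dinucleotides at 73.6% G and C, and 90.5% of 35116 RefSeq windows of this length held as many or fewer. The IL2RG window held 3 at 50% G and C, and 29.3% of windows held as many or fewer. The median window held 11. Whether Polycomb complexes bind either window in these cells was not tested. The STAT-type motif TTCNNNGAA, which reads the same on both strands, had no match in the 16 windows of the 10 genes, and 6.57% of all windows held it. The core GGAA of ETS and STAT sites, searched on both strands as GGAA or TTCC and part of many longer motifs, was found 2 times upstream of IL6ST and 5 times upstream of IL2RG, and 92.74% of all windows held it at least once.

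IL6ST, the signal-transducing chain shared by the IL-6 family, fell with doxycycline in the BMI1-shRNA line on all 5 of its retained probe sets. The mean signal of probe set 212196_at was 370.2 ± 22.4 with doxycycline and 686.9 ± 54.5 without (SD, n = 9), and that of 212195_at was 1203 ± 109 and 2153 ± 211. The fitted falls, on the log2(signal + 5.4) scale that all log2 fold changes here use, were 1.84-fold and 1.79-fold. In the control line the same probe sets read 1010.5 and 943.6, and 3037 and 3028. No fall was called for IL6ST in that line, where the log2 fold changes of the 5 probe sets lay between 0.00 and 0.13.

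On the individual arrays, 212195_at (IL6ST) read 1135.7, 1328.0 and 1243.4 with doxycycline at 24 h, 1262.8, 1165.2 and 1267.8 at 32 h, and 1312.7, 1119.2 and 990.7 at 48 h. Without doxycycline it read 2168.8, 2302.5 and 2308.6 at 24 h, 2143.9, 1899.6 and 1867.2 at 32 h, and 1936.3, 2279.9 and 2467.2 at 48 h. Every dosed array of the BMI1-shRNA line was lower than every undosed one, with the highest dosed value at 1328.0 and the lowest undosed value at 1867.2. In the control line the dosed arrays ran from 2692.2 through a median of 3134.6 to 3299.3, and the undosed ones from 2660.9 through 3136.4 to 3395.3, so those groups overlapped.

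**Figure D1:**
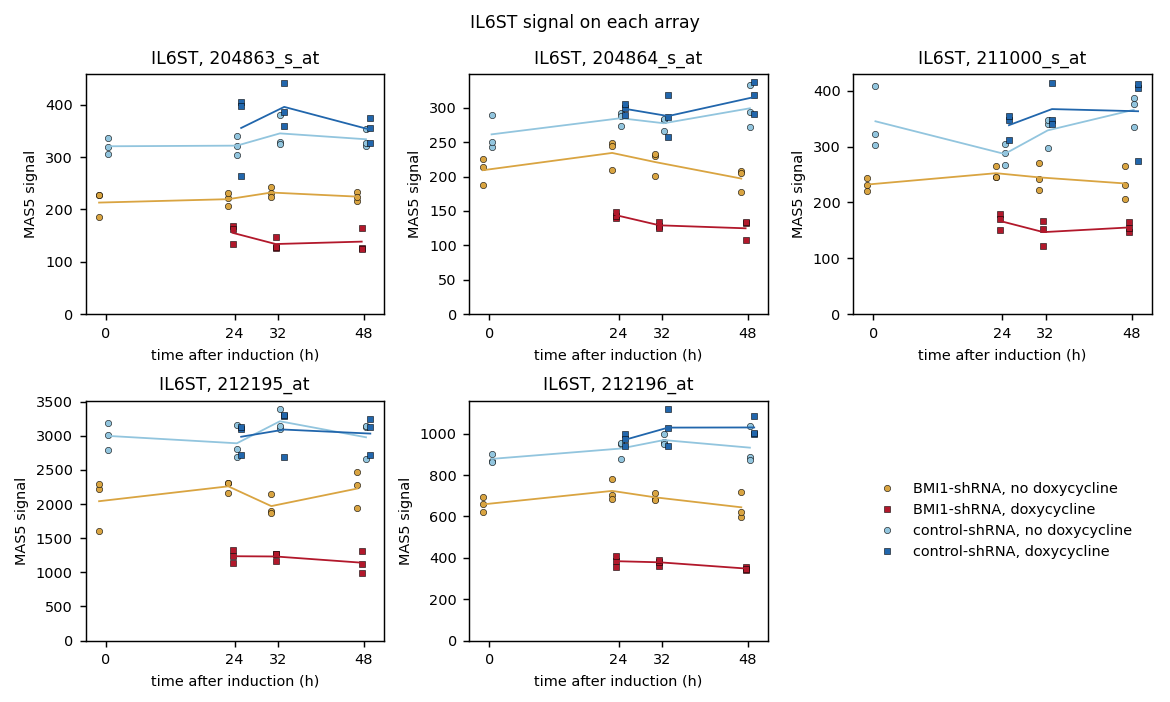
MAS5 signal (linear axis from 0) of the 5 retained IL6ST probe sets against time after induction in hours; each point is 1 array, lines join group means, and colours give the line and doxycycline. The dosed BMI1-shRNA arrays lie lowest in every panel, and for 212195_at they run from 990.7 to 1328.0.

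Over the mean of the 3 times, the log2 fold changes of IL6ST in the BMI1-shRNA line were -0.88 ± 0.04 for 212196_at (SE, adjusted p = 5.87e-19), -0.84 ± 0.06 for 212195_at (adjusted p = 8.45e-13), -0.69 ± 0.05 for 204864_s_at (adjusted p = 2.75e-12), -0.65 ± 0.07 for 204863_s_at (adjusted p = 2.70e-09) and -0.63 ± 0.07 for 211000_s_at (adjusted p = 2.85e-08). Dosed and undosed arrays did not overlap on any of the 5, a property that 0.934% of all retained probe sets had in the lower direction. Among all 35235 probe sets, 39 fell at least as far as 212196_at and 207 at least as far as 211000_s_at. In this comparison 6 of the 25 member probe sets were called (adjusted p below 0.05), 5 of IL6ST lower and 1 of IL6R higher, beside 5.83% of all probe sets called in either direction (2.44% higher and 3.39% lower). Of 9 plasma cell markers tested, CD38 (0.24 on the log2 scale), IRF4 (0.15) and TNFRSF17 (0.13) rose in the same comparison, PRDM1 was called on its brightest probe set (0.14) but not on the mean of its probe sets (0.01, adjusted p = 0.975), and of 4 epithelial markers KRT18 fell by 0.19. Their part in the fall of IL6ST was not tested.

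The fall of IL6ST was already present at 24 h. At 24, 32 and 48 h all 5 probe sets were called lower and no other member was called, beside 0.897%, 1.38% and 3.83% of all probe sets in either direction and 0.715%, 1.13% and 2.7% lower. For 212196_at the log2 fold change was -0.91 at 24 h, -0.86 at 32 h and -0.87 at 48 h. For 212195_at it was -0.87, -0.67 and -0.96. The doxycycline effect at 48 h minus that at 24 h was not called for any of the 25 probe sets (0.275% of all were called), and for 212195_at it was -0.09 ± 0.15. At 24 h the call of 204863_s_at (adjusted p = 0.0246) was lost when undosed replicate 1 or 2 or dosed replicate 2 of that time was left out (adjusted p = 0.0995, 0.132 and 0.249), and that of 211000_s_at when undosed replicate 1 or dosed replicate 2 was left out (adjusted p = 0.0608 and 0.0919).

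The lines differed in how IL6ST responded to doxycycline. The difference of the log2 fold changes, BMI1-shRNA line minus control line, was -0.98 ± 0.06 for 212196_at (SE, adjusted p = 1.86e-15), -0.84 ± 0.09 for 212195_at (adjusted p = 1.23e-08), -0.78 ± 0.10 for 204863_s_at, -0.75 ± 0.08 for 204864_s_at and -0.74 ± 0.10 for 211000_s_at. All 5 were called lower and no other member was called, beside 2.53% of all probe sets (0.772% higher and 1.76% lower). At single times 4 of the 5 were called lower, beside 0.219% of all at 24 h (0.213% lower), 0.565% at 32 h (0.463% lower) and 1.65% at 48 h (1.34% lower). The exceptions were 204863_s_at at 24 h (adjusted p = 0.183), 212195_at at 32 h (adjusted p = 0.0547) and 211000_s_at at 48 h (adjusted p = 0.140).

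IL6ST also differed between the lines before any induction. Without doxycycline its 5 probe sets were lower in the BMI1-shRNA line than in the control line, by log2 fold changes of -0.40 to -0.55, with 212195_at at -0.49 ± 0.06 (adjusted p = 3.08e-08). All 5 were called, beside 35.1% of all probe sets in either direction and 18.1% lower. At 0 h, on the arrays with conflicting labels, the 5 log2 fold changes lay between -0.31 and -0.58. All 5 were called, beside 20.8% of all probe sets in either direction and 10.7% lower. The 0 h call of 204864_s_at was lost without control replicate 1 (adjusted p = 0.115) or BMI1-shRNA replicate 2 (adjusted p = 0.111). With doxycycline in both lines IL6ST was by the fit 2.22-fold to 2.70-fold lower in the BMI1-shRNA line, with log2 fold changes of -1.15 to -1.44. That comparison called 38.1% of all probe sets, and 17.9% lower. BMI1 itself was lower in the undosed BMI1-shRNA line, as given above, and whether that has a part in the level of IL6ST was not tested.

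Among the probe sets annotated to 1 gene, those whose 14 group means followed IL6ST most closely, after each line's mean was subtracted, were IDH1 (Pearson r = 0.975), MRPL10 (r = 0.973) and DCTN6 (r = 0.970). IDH1 encodes cytosolic isocitrate dehydrogenase, MRPL10 a mitochondrial ribosomal protein and DCTN6 a dynactin subunit. Their log2 fold changes with doxycycline in the BMI1-shRNA line were -2.44, -1.11 and -0.76. The BMI1 probe set, left out of this ranking because it is annotated to a pair of genes, had r = 0.974, between IDH1 and MRPL10. The 14 means include the 0 h group with conflicting labels and share all their arrays. IL6ST was ranked because its doxycycline effect was called, and BMI1 is the target of the hairpin. A fall shared on the dosed BMI1-shRNA arrays is enough for a high r, so these correlations do not show a closer tie.

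IL6R, the chain that binds IL-6, showed at most a small change. Probe set 226333_at, its brightest, read 663.7 to 869.1 (median 764.3) with doxycycline and 615.6 to 772.3 (median 701.7) without in the BMI1-shRNA line, and its log2 fold change of 0.12 ± 0.05 was not called (adjusted p = 0.168). Probe set 205945_at read 393.7 to 500.1 (median 420.2) with and 329.1 to 432.9 (median 380.3) without doxycycline, groups that overlap. It rose by 0.19 ± 0.06 on the log2 scale (adjusted p = 0.0373), a call that was lost without dim-value filtering (adjusted p = 0.0542), without the intensity trend (adjusted p = 0.0638), or on leaving out any of 8 single arrays, with adjusted p between 0.0618 and 0.113. Those 8 were undosed replicates 2 and 3 and dosed replicate 3 at 24 h, undosed replicate 3 and dosed replicate 1 at 32 h, and undosed replicate 2 and dosed replicates 2 and 3 at 48 h. In the control line this probe set changed by 0.10, which was not called, and the difference between lines of 0.09 ± 0.08 was not called either (adjusted p = 0.708, 95% interval -0.07 to 0.25). The third probe set, 217489_s_at, gave 0.04 and -0.01 in the lines. Between undosed lines IL6R was slightly lower in the BMI1-shRNA line, by -0.17 for 226333_at (adjusted p = 0.00518) and -0.18 for 205945_at (adjusted p = 0.0114).

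**Figure D2:**
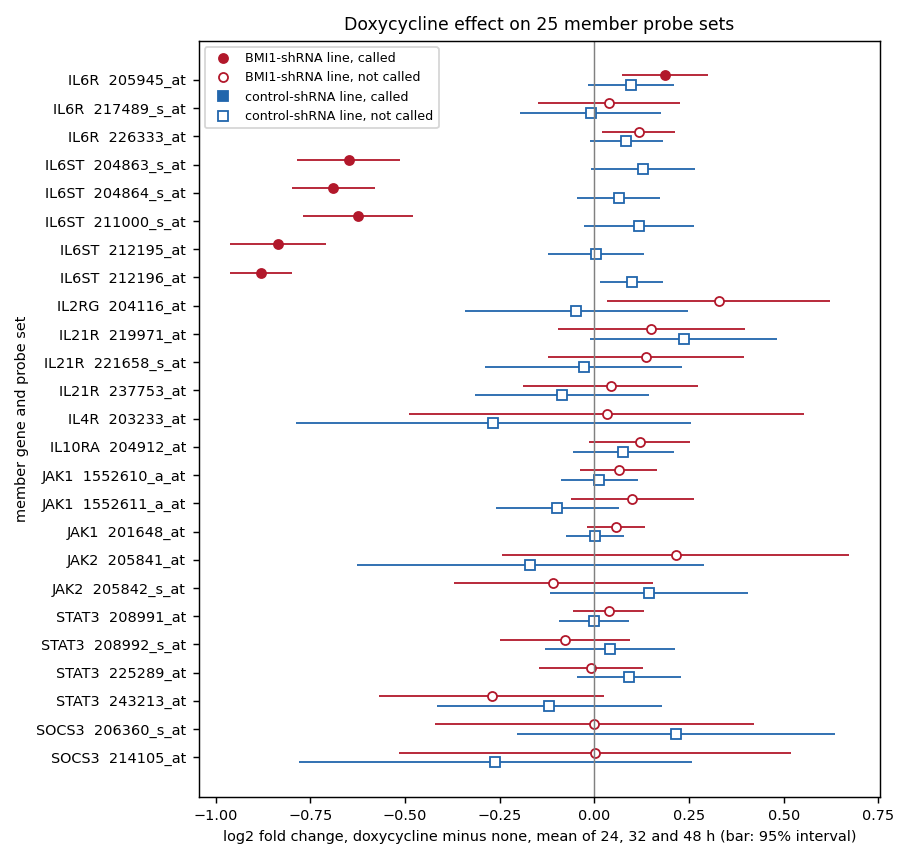
Log2 fold change with doxycycline (x axis, mean of 24, 32 and 48 h) for each of the 25 retained member probe sets (y axis) in the BMI1-shRNA line (circles) and the control line (squares); bars are 95% intervals and filled symbols are called. The 5 IL6ST probe sets of the BMI1-shRNA line lie between -0.88 and -0.63, and no control-line point is filled.

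IL2RG, the common gamma chain, separated the lines on every array. Probe set 204116_at read 1.5 to 29.4 on the 21 arrays of the BMI1-shRNA line and 240.5 to 385.7 on the 21 arrays of the control line. Among all probe sets 5.65% were lower on every undosed 24, 32 and 48 h array of the BMI1-shRNA line than on every such array of the control line. Without doxycycline the control line read 281.1, 290.0 and 285.0 at 24 h, 271.4, 276.6 and 256.7 at 32 h, and 258.1, 271.4 and 260.6 at 48 h. The BMI1-shRNA line read 15.3, 1.5 and 17.5 at 24 h, 20, 18 and 19.1 at 32 h, and 13.4, 17.7 and 26.0 at 48 h. These values lie around the array medians of 16 to 22.5, so how far the true level lies below the control line is not well set by them. The log2 fold change between undosed lines, on the log2(signal + 5.4) scale, was -3.76 ± 0.15 (SE, a fitted fold of 13.5 lower, adjusted p = 1.26e-22).

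At 0 h the log2 fold change of IL2RG was -3.82 ± 0.25 (21.4, 17.6 and 24.7 against 385.7, 361.8 and 355.2), and with doxycycline it was -3.38 ± 0.15. The 0 h arrays with conflicting labels read as the BMI1-shRNA line does and not as the control line does. Doxycycline moved IL2RG by 0.33 ± 0.15 in the BMI1-shRNA line (adjusted p = 0.229) and by -0.05 ± 0.15 in the control line (adjusted p = 0.994), neither called. At 24 h in the BMI1-shRNA line the dosed arrays read 24.6, 25 and 19.6 and the log2 fold change was 0.93 ± 0.25 (adjusted p = 0.0653), with 1 undosed array at 1.5. This value was called when undosed replicate 1 or 3 of 24 h or dosed replicate 1 of 32 h was left out, and under a stricter filter on dim probe sets.

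**Figure D3:**
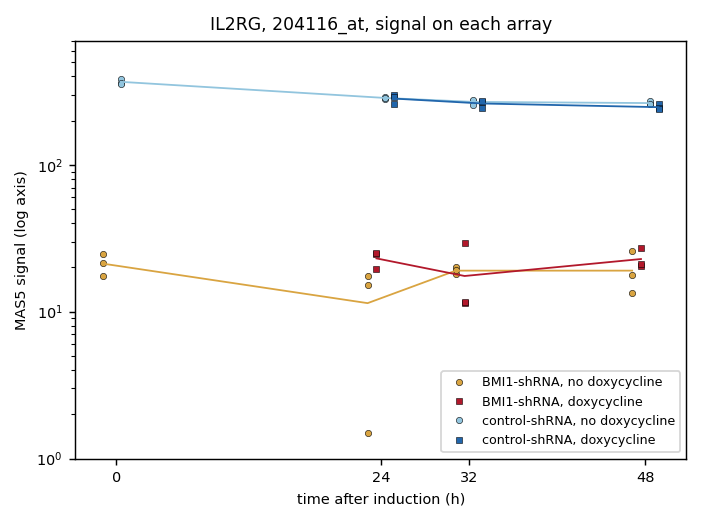
MAS5 signal (log axis) of IL2RG probe set 204116_at against time after induction in hours; each point is 1 array and lines join group means. The control-shRNA arrays lie between 240.5 and 385.7 and the BMI1-shRNA arrays between 1.5 and 29.4, with and without doxycycline.

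IL21R and IL4R, which pair with the common gamma chain, changed less. The brightest IL21R probe set, 221658_s_at, read 57.5 to 116.5 (median 75.8) with and 53.9 to 82.4 (median 64.9) without doxycycline in the BMI1-shRNA line, and its difference of 0.14 ± 0.13 on the log2 scale was not called. Between undosed lines it differed by -0.12, also not called, while 237753_at of the same gene was lower in the BMI1-shRNA line by -0.47 ± 0.11 (adjusted p = 0.00103) and 219971_at by -0.25 (adjusted p = 0.119). From 0 to 48 h without doxycycline 221658_s_at differed by 0.66 ± 0.22 in the control line and 0.62 ± 0.22 in the BMI1-shRNA line, neither called (adjusted p = 0.0941 and 0.136), the 0 h arrays of the latter being those with conflicting labels. IL4R probe set 203233_at was dim, at 4.4 to 43.0 over all arrays, and differed by 0.03 with doxycycline in the BMI1-shRNA line (95% interval -0.49 to 0.55). Between undosed lines IL4R was lower by -0.65 ± 0.26 in the BMI1-shRNA line (adjusted p = 0.0465), a call lost with the replicate number as a block (adjusted p = 0.0509), under 5 other alternatives and on leaving out any of 16 single arrays (adjusted p up to 0.138).

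IL10RA, the ligand-binding chain of the IL-10 receptor, read 153.5 to 196.9 (median 183.5) with and 144.1 to 194.1 (median 159.6) without doxycycline in the BMI1-shRNA line. These groups overlap, and the difference of 0.12 ± 0.07 was not called (adjusted p = 0.379). Between undosed lines it was higher in the BMI1-shRNA line by 0.19 ± 0.07 (adjusted p = 0.0237), a call lost on leaving out control replicate 3 or BMI1-shRNA replicate 1 at 24 h, control replicate 1 or BMI1-shRNA replicate 2 at 32 h, or BMI1-shRNA replicate 1 at 48 h (adjusted p = 0.0555 to 0.0766). At 0 h, on the arrays with conflicting labels, it was higher by 0.47 ± 0.11 (212.0, 223.5 and 221.4 against 166.9, 142.0 and 163.4, adjusted p = 0.00212). Within the undosed BMI1-shRNA line IL10RA was lower at 48 h than on the same 0 h arrays by -0.41 ± 0.11 (adjusted p = 0.0413, beside 2.53% of all probe sets called, 1.14% lower), a call that was lost when any of the 0 h arrays or replicate 2 or 3 at 48 h was left out (adjusted p = 0.0744 to 0.213).

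JAK1, a kinase bound to both IL6ST and the partners of the common gamma chain, was a little higher in the BMI1-shRNA line with and without doxycycline. Its brightest probe set, 201648_at, read 572.7 to 714.7 (median 595.0) on the undosed BMI1-shRNA arrays and 483.9 to 562.8 (median 517.7) on the undosed control arrays, which do not overlap, as 6.2% of all probe sets did in this direction. The log2 fold change was 0.24 ± 0.04 (adjusted p = 2.03e-06), and 1552610_a_at gave 0.27 ± 0.05 (adjusted p = 2.12e-05), while 1552611_a_at gave 0.06 and was not called. Doxycycline moved 201648_at by 0.06 (95% interval -0.02 to 0.13) in the BMI1-shRNA line and by 0.00 in the control line. JAK2 was dim, with 205842_s_at at 21.4 to 62.3 and 205841_at at 1.4 to 26.3. Between undosed lines 205842_s_at differed by 0.19 ± 0.13 and was not called (adjusted p = 0.283). Probe set 205841_at reached the array median on 1 array of the BMI1-shRNA line and 7 of the control line, so its means of 7.9 and 18.1 are given with no fold or test, and no direction is given for the gene.

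STAT3, the main transcription factor downstream of IL6ST, was not called with doxycycline on any of its 4 probe sets. Probe set 208991_at read 398.7 to 485.5 (median 454.3) with and 394.4 to 476.2 (median 442.5) without doxycycline in the BMI1-shRNA line, with a log2 fold change of 0.04 (95% interval -0.06 to 0.13). Between undosed lines STAT3 was higher in the BMI1-shRNA line by 0.15 ± 0.05 for 208991_at (adjusted p = 0.0104), 0.24 ± 0.07 for 225289_at (adjusted p = 0.00483) and 0.40 ± 0.15 for the dim 243213_at (adjusted p = 0.0296), while 208992_s_at gave 0.21 ± 0.09 (adjusted p = 0.0531). The call of 243213_at was lost on leaving out any of 5 arrays: control replicate 3 and BMI1-shRNA replicate 1 at 24 h, control replicate 2 at 32 h, control replicate 3 and BMI1-shRNA replicate 1 at 48 h (adjusted p = 0.0578 to 0.0816). That call was also lost with no filter on dim probe sets (adjusted p = 0.0568). SOCS3, which STAT3 induces, was near the array medians, with 206360_s_at at 3.8 to 39.3 and 214105_at at 1.3 to 24.5. It was not called in any comparison. For 206360_s_at the change with doxycycline in the BMI1-shRNA line had a 95% interval of -0.42 to 0.42 on the log2 scale. Changes inside that range are compatible with these values, and the interval is not a limit of detection.

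Between undosed lines 17 of the 25 member probe sets, from 9 of the 10 genes, were called, 6 higher and 11 lower in the BMI1-shRNA line, beside 35.1% of all probe sets (17% higher and 18.1% lower). JAK2 entered that count only through 205841_at. Of the 23 member probe sets that reached the array median on at least 3 arrays of each line, 16 were called, 6 higher and 10 lower, from 8 genes. The share of all probe sets called under that stricter filter was not computed, so the 16 have no background beside them. Of all member probe sets, the count called at 0 h was 10 of 25, beside 20.8% of all. With doxycycline in both lines the count was 14 of 25, beside 38.1% of all. The GAPDH ratio given above and 3 of the 4 retained epithelial markers moved with the line: CDH1, KRT18 and EPCAM were higher in the BMI1-shRNA line by 2.93, 0.51 and 0.20 on the log2 scale. The summed signal of the 4 was 5515.8 to 6482 on the undosed BMI1-shRNA arrays and 4010.6 to 5182.3 on the undosed control arrays. Of the 9 plasma cell markers CD38 (0.97), IRF4 (0.14) and PRDM1 (0.12) were higher and SDC1 (-0.23) and TNFRSF17 (-0.17) lower, the PRDM1 call being lost with the mean of its probe sets (adjusted p = 0.102). Of 4 markers of earlier B cells MS4A1 was higher by 2.24 (109.0 against 18.8) and CR2 lower by -1.57 (21.3 against 71.1). The part of these differences in those of the members was not tested. Of 5 monocyte genes only CSF1R was retained, and the summed signal of 4 retained T-cell genes lay between 45.1 and 159.2 on all arrays, against 17161.1 to 25542.6 for the 9 plasma cell genes.

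**Figure D4:**
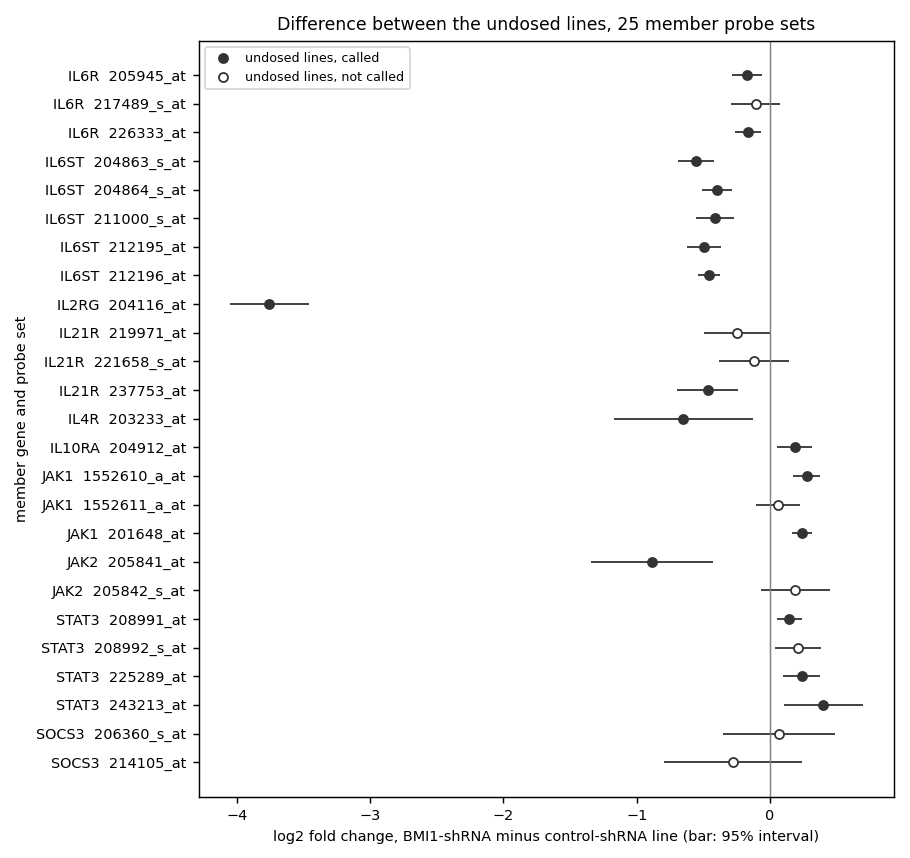
Log2 fold change between the undosed lines (x axis, BMI1-shRNA minus control, mean of 24, 32 and 48 h) for each of the 25 retained member probe sets (y axis); bars are 95% intervals and filled symbols are called. IL2RG lies at -3.76 and the 5 IL6ST probe sets between -0.55 and -0.40, while JAK1 and STAT3 probe sets lie above 0; JAK2 205841_at and SOCS3 214105_at, dim in the BMI1-shRNA line, are drawn but not read.

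Without doxycycline few members were called with time. From 24 to 48 h no member probe set was called in either line, beside 0.358% of all probe sets in the control line and 0.596% in the BMI1-shRNA line. From 0 to 48 h in the control line 2 of 25 were called higher, beside 3.56% of all (1.97% higher): IL6R 226333_at by 0.33 ± 0.08 (adjusted p = 0.0133) and STAT3 208991_at by 0.33 ± 0.08 (adjusted p = 0.0127). Both calls were lost without control replicate 3 at 48 h (adjusted p = 0.0634 and 0.0889), the IL6R call also without control replicate 1 at 0 h (adjusted p = 0.103) and the STAT3 call without control replicate 3 at 0 h (adjusted p = 0.112). IL2RG was lower at 48 h than at 0 h on the undosed control arrays, by the signals given above, but was not called in this fit. With only these groups fitted, IL2RG was the member called and IL6R and STAT3 were not. In the control line doxycycline led to no call among the 25 member probe sets, with limma calling 0.071% of all 35235 probe sets. Of the 35235, 2038 had an unadjusted limma p below 0.05, a level that some probe sets pass with no effect.

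The rest of the pathway was followed through 92 other genes, each by its brightest retained probe set, of which 72 could be tested. With doxycycline in the BMI1-shRNA line 8 of the 72 were called, 6 higher and 2 lower, beside 7.53% of 14705 genes followed in the same way, and their median log2 fold change was 0.04 beside 0.02 for all genes. Of 25 other cytokine receptors tested, IL27RA rose and IFNAR1 fell. IL27RA, which pairs with IL6ST to form the IL-27 receptor, rose by 0.35 ± 0.06 (194.8 against 152.1, adjusted p = 2.10e-04), a call lost when all its probe sets were averaged (adjusted p = 0.149). IFNAR1, a chain of the type I interferon receptor, fell by 0.37 on the log2 scale (96.8 against 122.9, adjusted p = 0.00371). The difference between lines was not called for either (0.28, adjusted p = 0.105, and -0.39, adjusted p = 0.0709). LIFR and OSMR, which also pair with IL6ST, were dim at means of 8.7 and 10.8 with doxycycline and were not called.

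None of the 6 other Janus kinases and STATs tested was called with doxycycline in the BMI1-shRNA line. Of 19 other regulators 2 were called higher. SOCS2, a feedback inhibitor induced by STAT5, rose by 0.31 ± 0.09 (86.1 against 68.7, adjusted p = 0.0425), a call lost under 7 alternatives, the replicate block among them (adjusted p = 0.0505), and on leaving out any of 12 single arrays (adjusted p up to 0.120). PTPN2, a phosphatase of JAK1 and STAT proteins, rose by 0.15 ± 0.04 (adjusted p = 0.0150), a call lost when its probe sets were averaged (adjusted p = 0.224).

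Only 6 of 19 ligand genes had a retained probe set. The IL6 probe set itself read 1.9 to 19.8 on all arrays and was not tested. IL11, a ligand of the IL6ST family, rose by 1.00 ± 0.30 from a dim level (28.1 against 11.9, adjusted p = 0.0347), a call lost on leaving out any of 10 single arrays (adjusted p up to 0.101). The call was also lost with no filter on dim probe sets, with only the groups compared and without the 0 h arrays (adjusted p = 0.0507, 0.0656 and 0.0502). The difference between lines of 0.40 was not called.

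Of 16 genes known as targets of STAT3, 2 rose and 1 fell with doxycycline in the BMI1-shRNA line. ICAM1, an adhesion molecule, fell by 0.36 ± 0.04 on the log2 scale (772.3 against 994.3, adjusted p = 2.67e-09), and the difference between lines was -0.26 ± 0.05 (adjusted p = 0.00166). HIF1A, a hypoxia-responsive transcription factor, rose by 0.21 ± 0.03 (1345 against 1159, adjusted p = 3.87e-06), with a difference between lines of 0.17 ± 0.04 (adjusted p = 0.02). PRDM1, a regulator of the plasma cell state, rose by 0.14 in the BMI1-shRNA line and 0.15 in the control line, and its brightest probe set did not stand for the gene, since the mean of its probe sets gave 0.01 and -0.02. These were the 2 of 72 genes called in the difference between lines, beside 3.31% of all genes followed, and PRDM1 was the 1 of 72 called in the control line, beside 0.122%.

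Between undosed lines 37 of the 72 were called, 18 higher and 19 lower in the BMI1-shRNA line, beside 42.6% of all genes followed (21.2% higher and 21.4% lower). Of the 61 whose probe set reached the array median on at least 3 arrays of each line 32 were called, 15 higher and 17 lower. The share of all genes called under that stricter filter was not computed. SOCS2 was lower by a log2 fold change of -2.60 ± 0.09 (68.7 against 437.7, adjusted p = 1.88e-23), in the same direction as IL2RG. SOCS6 (-0.60) and the phosphatase PTPN6 (-0.55) were also lower. In all 9 of 19 regulators were called lower, but with no filter the calls of CISH, SOCS5 and PIAS3 were lost (adjusted p = 0.0587, 0.0609 and 0.0651), as they were on leaving out any of several single arrays (adjusted p up to 0.121), and that of SOCS7 was lost with the mean of its probe sets (adjusted p = 0.23). SOCS5 and PIAS3 also lost their calls without the 0 h arrays (adjusted p = 0.0532 and 0.0576), and SOCS5 with only the groups compared (adjusted p = 0.0706). PTPN2 was higher (0.45), as was the adaptor GAB1 (0.40), whose call was lost with the mean of its probe sets (0.17, adjusted p = 0.0568). Among receptors IL12RB1 was higher by 1.79 ± 0.10 (234.0 against 64.7), IL13RA1, a partner of IL4R, was lower by -1.74 ± 0.12 (15.5 against 63.2) and IFNAR1 by -0.50 ± 0.08. Some called genes reached the array median on at least 3 arrays of 1 line only, so no fold or test is given for them. Mean signals in the BMI1-shRNA and control lines were 61.4 and 9.6 for PTPRC, the CD45 phosphatase of blood cells, 21.0 and 3.4 for IL3RA, 24.5 and 11.7 for IL7R, another partner of the common gamma chain, and 5.0 and 31.0 for LIFR. STAT5A was higher by 1.28 ± 0.11 (99.7 against 38.3), STAT5B by 0.37 and STAT6 by 0.34, and TYK2 was lower by -0.15. The TYK2 call was lost on leaving out any of 13 single arrays and with the replicate block (adjusted p = 0.0516). It was also lost with no filter, no intensity trend, only the groups compared and without the 0 h arrays (adjusted p = 0.0668, 0.0627, 0.0816 and 0.0553). Of the STAT3 targets 6 were higher, BCL6 (1.26), CEBPD (0.99) and BCL2L1 (0.72) most, and 5 lower, HIF1A (-0.80), MCL1 (-0.43) and CEBPB (-0.36) most. Among 6 ligands IL13 was higher by 0.48 from a dim level, a call lost on leaving out any of 10 single arrays. The IL13 call was also lost with no filter (adjusted p = 0.0666) and with only the groups compared (adjusted p = 0.0505). IL15, the other ligand called, reached the array median on 1 array of the BMI1-shRNA line and 5 of the control line, so no fold or test is given.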

How the data were processed

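RNA from 42 samples was hybridized to 1 array each. What the authors deposited is an intensity for every probe set, computed with MAS5 per the submitters' processing notes (no version given) and on a linear scale. After trimming 2% from both ends, mean signals lay between 150.02 and 150.03, as after scaling to a common target. Detection calls were not used here, and the number of arrays, 3 per group, limits the precision. Genes were named from the platform annotation, in which 41091 probe sets had a single symbol, 1801 several and 11721 none, and promoter windows come from RefSeq (GRCh38.p14), matched by symbol for 10 of 10 genes.

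The 62 control probe sets were left out, and 35235 of 54675 probe sets were retained. Tests used limma 3.58.1 in R 4.3.3 on log2(signal + 5.4), 5.4 being the 25th percentile, with 14 group means and an intensity trend (28 residual degrees of freedom). Fold changes are on this scale and understate changes of dim probe sets. P-values were adjusted by the Benjamini-Hochberg method over all retained probe sets, and a call is an adjusted p below 0.05. There were 18 planned comparisons and 2 added after seeing the data: the doxycycline effect at 48 h minus that at 24 h, and the lines compared with doxycycline. The limma script was tested on simulated data.

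The member genes and the gene lists were chosen with earlier results of these data known. All members are accounted for. From each list up to 3 called genes per direction with the largest change are named, each by its brightest retained probe set, besides LIFR, OSMR and IL6, which were named after their values were seen. Likeness to IL6ST used the 3 highest correlations of 14 group means. Replicate numbers did not pair arrays: same-numbered arrays deviated together with a mean correlation of 0.001 and a lowest of -0.237. Within groups arrays correlated at 0.968 to 0.981, and no 2 were identical. Alternatives changed the pseudocount, the normalization, the filter, the feature per gene, the trend, the samples in the fit and the replicate block, and left out each array in turn.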

Additional observations from a re-analysis of the deposited data

Results flagged for a closer look

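The response of IL6ST to doxycycline differed between the BMI1-shRNA line and the control line by the test of that difference, and no other member did so at an adjusted p below 0.05 (limma). Over the mean of times the difference of log2 fold changes was -0.78 for 204863_s_at, -0.75 for 204864_s_at, -0.74 for 211000_s_at, -0.84 for 212195_at and -0.98 for 212196_at. At 24 h it was -0.75 for 204864_s_at, -0.82 for 211000_s_at, -0.92 for 212195_at and -0.97 for 212196_at. At 32 h it was -0.96 for 204863_s_at, -0.80 for 204864_s_at, -0.88 for 211000_s_at and -0.95 for 212196_at. At 48 h it was -0.76 for 204863_s_at, -0.72 for 204864_s_at, -0.99 for 212195_at and -1.02 for 212196_at. The probe sets share 1 gene and the same arrays, and the time points share none of their arrays. The call of 211000_s_at at 24 h was lost on leaving out any of 6 single arrays: undosed and dosed control replicates 1 and 2, BMI1-shRNA undosed replicate 1 or dosed replicate 2 of that time (adjusted p = 0.0595 to 0.116).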

How the results depend on the processing

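The number of member genes with a called probe set kept within 1.5 times its value in every comparison and alternative run except the following. With doxycycline in the BMI1-shRNA line over the mean of times it went from 2 to 1, IL6ST remaining, with no filter, with no intensity trend, and with 1 feature per gene, whether its brightest probe set or the mean, and it was 1 to 2 over the arrays left out in turn. At 24 h it went from 1 to 2, IL2RG joining IL6ST, under the 75th percentile filter and with the brightest probe set per gene (1 to 2 over arrays left out). At 48 h it went from 1 to 2, IL6R joining, under the 75th percentile filter (1 to 2 over arrays left out). From 0 to 48 h in the undosed BMI1-shRNA line it went from 1 to 0 with no filter, no trend or only the groups compared, and to 2 with the mean per gene, IL21R joining IL10RA (0 to 1 over arrays left out). In the control line it went from 2 to 1 with only the groups compared, where IL2RG was the gene called (0 to 3 over arrays left out). The cause was not tested. Of 216 single values followed under 11283 alternative values in all, 11031 kept their side of the threshold, 239 lost the call and 12 gained one. PRDM1 in the control line reversed to -0.024 with the mean of its probe sets. IL6ST over the mean of times stayed called on each of its 5 probe sets that was in the fit, under all alternatives that kept the probe sets apart. Leaving out probe sets named _s_at or _x_at removed 204863_s_at, 204864_s_at and 211000_s_at, so that alternative did not test them. At single times IL6ST lost calls of 204863_s_at at 24 h (adjusted p = 0.0526 with no trend and 0.0747 with only the groups compared) and, in the difference between lines, of 211000_s_at at 24 h (0.0641 with no trend) and 204864_s_at at 48 h (0.0566 with only the groups compared). The replicate block ended the calls of IL4R and TYK2 between undosed lines and of SOCS2 with doxycycline, given above, and changed no other call among these values; 14 of 42 arrays correlated best with their own number. Over all probe sets the count called with doxycycline in the BMI1-shRNA line went from 2054 to 1220 (brightest per gene), 987 (mean per gene) and 1223 (without probe sets named _s_at or _x_at, an alternative chosen after seeing the data), where fewer features are tested. Likewise it went from 893 to 558, 428 and 553 for the difference between lines, and from 12362 to 6443, 6035 and 7225 between undosed lines. With only the groups compared it went from 316 to 167 at 24 h, 486 to 220 at 32 h, 1348 to 516 at 48 h, 25 to 16 in the control line, 1253 to 265 and 892 to 327 from 0 to 48 h in the control and BMI1-shRNA lines, 126 to 9 and 210 to 14 from 24 to 48 h, and 199 to 94 and 583 to 236 for the difference between lines at 32 and 48 h. From 24 to 48 h it was 246 and 415 under the 75th percentile filter. For the doxycycline effect at 48 h minus that at 24 h in the BMI1-shRNA line it went from 97 to 10 with only the groups compared, 167 under the 75th percentile filter, 50 with the mean per gene and 53 without undosed BMI1-shRNA replicate 2 of 48 h. Leaving out dosed BMI1-shRNA replicate 2 of 24 h took 316 to 188, undosed BMI1-shRNA replicate 3 of 0 h took 892 to 427, undosed control replicate 2 of 0 h took 1253 to 776, undosed control replicate 3 of 48 h took 126 to 35, undosed BMI1-shRNA replicate 2 of 24 h took 210 to 72, and undosed control replicate 1 of 48 h took 25 to 16. Signals near the array medians limit what can be said of SOCS3, JAK2, IL4R and, in the BMI1-shRNA line, IL2RG.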
